A study of Homo sapiens with 6 samples.

Results

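The cytosolic chaperones are the proteins that help newly made or damaged proteins of the cytosol to fold. The 42 genes examined here were taken from a list of chaperonin, HSP70, HSP90, small heat shock protein, J protein, prefoldin, co-chaperone and heat shock factor genes. Their members were found as the probe sets whose annotated gene symbols include a listed gene. This gave 86 of 54613 probe sets and 40 of the 42 genes. AHSA1 and HSF2 were not analysed here.

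The cells were MCF10A, an established, non-tumorigenic line of human mammary epithelium. In one group they had been transfected with a miR-221/222 mimic, and in the other with a control microRNA (miR-control). Each group had 3 biological replicates, and the RNA of each replicate was hybridised to its own array. Values are log2 intensities, so a difference of 1 is a 2-fold difference, and differences are mimic minus control. Both groups are the same cell line. Sources used here do not state the dose, how long the cells were kept after transfection, or the sequences of the transfected RNAs.

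Chaperones work in relays. J proteins deliver clients to HSP70, HSP110 and BAG proteins make HSP70 release its nucleotide, and STIP1 hands clients on to HSP90. Prefoldin passes unfolded actin and tubulin to the CCT chaperonin, a ring-shaped complex whose subunits are each encoded by a gene of their own. Many of these genes have an inducible and a constitutive relative, and heat shock factor 1 (HSF1) raises the inducible ones under stress. MicroRNAs lower messenger RNAs that pair with bases near their 5′ end, the seed.

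The mature 3p sequences of the natural microRNAs are shown because the seed sets which messenger RNAs can pair with them; which arm the mimic carried is not stated. Capitals mark bases 2 to 8 in the RefSeq mature sequences (GRCh38.p14), which are the same in both.
hsa-miR-221-3p (chrX:45746180-45746202, minus strand): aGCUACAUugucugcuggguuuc
hsa-miR-222-3p (chrX:45747036-45747056, minus strand): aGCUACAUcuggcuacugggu
Pairing sites in the chaperone messenger RNAs were not analysed here, so no statement is made on which of them are direct targets.

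Facts of the whole series were as follows. Array medians lay between 7.59 and 7.66, and Pearson's r between arrays within a group, taken across probe sets, which are not independent of each other, was 0.9953 to 0.998. The 3′ minus 5′ signal of ACTB, a check of RNA integrity, was 0.33 to 0.39 on the mimic arrays and 0.29 to 0.36 on the control arrays. Of 10 mammary epithelial markers 8 were measured, with group means from 8.66 to 13.50, of which 7 fell and LAMB3 rose. Their summed signal on the log2 scale was 14.43 to 14.54 on the mimic arrays and 15.49 to 15.56 on the control arrays. Summed markers of fibroblasts were 13.83 to 13.91 on the mimic arrays and 12.42 to 12.51 on the control arrays, where of 6 genes DCN, a matrix proteoglycan gene, rose by 1.66, LUM fell by 1.06 and 4 did not pass. The endothelial sum was 10.65 to 10.74 on the mimic arrays against 10.88 to 11.03 on the control arrays, and of its 5 genes only KDR changed (-1.48). The blood cell sum was 10.79 to 10.83 on the mimic arrays against 11.13 to 11.17 on the control arrays, and of 5 measured genes ITGAM rose (0.21), CD14 fell (-1.15) and 3 did not pass. In bulk RNA, fewer cells with a transcript and less of it per cell cannot be told apart. The part of these markers in the chaperone results was not tested, and no detection calls were used.

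With the mimic, chaperone genes changed in both directions, and relatives within a family parted. The inducible HSP70 genes HSPA1A and HSPA1B, HSPH1, HSP90AB1, DNAJA1, HSPA2 and the prefoldin gene VBP1 rose. The constitutive HSP70 gene HSPA8, the HSP110 genes HSPA4 and HSPA4L, BAG3, DNAJB6 and most CCT subunit genes fell. At the probe sets used, the largest rise was that of HSPH1 (1.62-fold), and HSPA4L and DNAJB6 were more than 2-fold lower, DNAJB6 at 1 of its 3 probe sets.

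Each gene was read at the probe set of its own with the highest mean. TCP1, HSPA8, PFDN6, HSPA1A and HSPA1B had only probe sets annotated to several genes and were read at those. HSPA1A and HSPA1B share all 3 of theirs and were counted once, which left 39 readings. By limma with Benjamini-Hochberg adjustment over all probe sets, 6 readings rose, 15 fell and 18 did not pass. Of all 19775 genes with a probe set of their own, 14.1% rose and 16.3% fell, 30.4% in all, against 53.8% of the chaperone readings. Chaperone signals were strong, with 33 of the 39 readings at a mean of 10 or more. Of the 4624 genes with such a mean, 53.2% passed, so the share of chaperone readings that passed (54.5% of those 33) was near that of other strongly measured genes. The median difference was -0.12 over the chaperone readings, -0.04 over the genes with a mean of 10 or more and 0.03 over all genes.

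The 3 arrays of a group lay wholly on one side of the other 3 in 28 of the 39 readings, 10 with mimic above and 18 with mimic below. The same held for 45.6% of all genes and for 70.7% of genes with a mean of 10 or more. By size, 2 readings (5.1%) differed at least 2-fold, as did 3.1% of all genes and 4.4% of genes with a mean of 10 or more. A difference of at least 1.5-fold was seen in 5 readings (12.8%), in 8.7% of all genes and in 14.6% of genes with such a mean. Counted by probe set, 44 of the 86 passed, 14 higher and 30 lower, against 24.8% of all probe sets. Of the 86, 60 had a mean of 10 or more, and the share among all probe sets that strong was not computed. The 6 rises passed with each array left out and under the other scalings, models and readings tried, though only HSPH1 reached a 1.5-fold minimum. Of the 15 falls, 9 passed without control replicate 1 and 8 without control replicate 2. Among all genes, 6013 passed in either direction in the main fit, 4753 without control replicate 1 and 4824 without control replicate 2. After quantile normalization of the values again, 10 readings rose and 12 fell, with array weights 10 and 15, and with the trend on mean signal removed 8 and 12. The array weights ran from 0.41 for mimic replicate 1 to 3.17 for mimic replicate 2. In these fits 6445, 7620 and 5785 of all genes passed in either direction. The added rises were HSPB1 and PFDN4 in all 3 cases, with DNAJB1 and PFDN1 in the first 2.

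**Figure D1:**
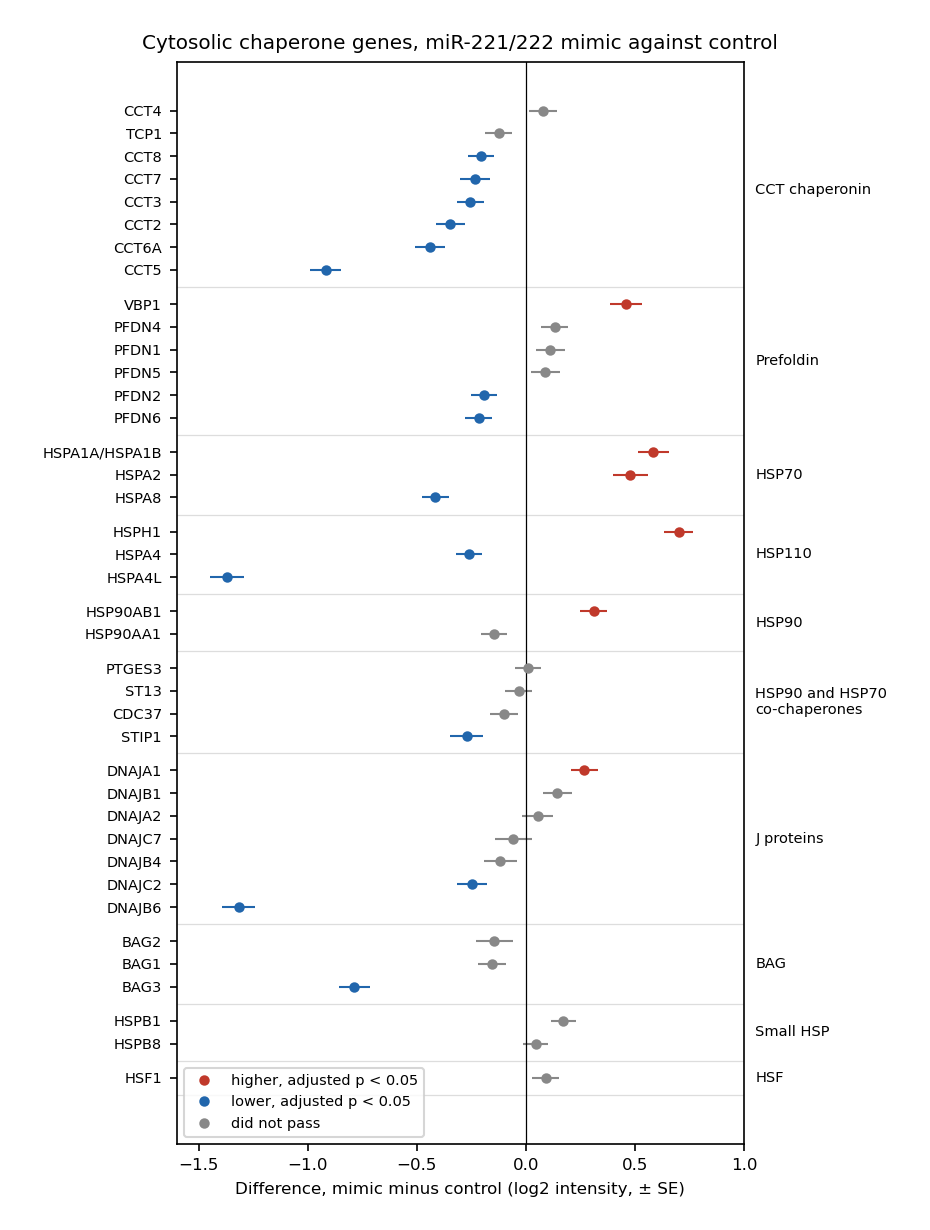
Difference between mimic and control arrays for each of the 39 chaperone readings (points, log2 intensity, mimic minus control; bars, limma's standard error), grouped by the protein's role, with 3 arrays per group. The HSP70 and HSP110 families hold both rises and falls, and all CCT subunits but CCT4 lie below 0.

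**Figure D2:**
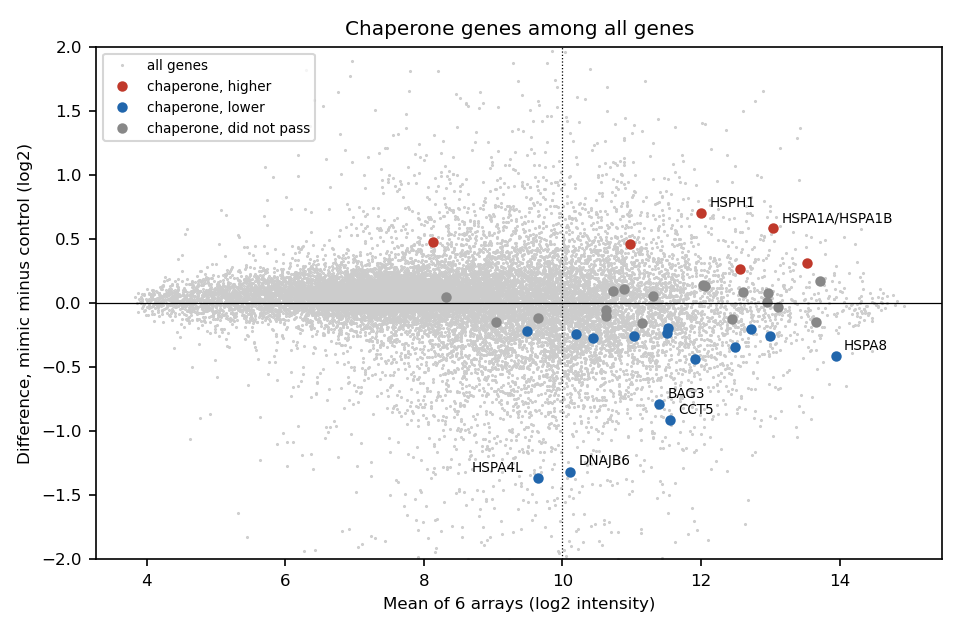
Difference against mean signal for the 39 chaperone readings (large points) and all 19775 genes (grey), both on the log2 scale; the dotted line marks a mean of 10, and 99 genes lie beyond the plotted range. Most chaperone points lie right of the dotted line, where 53.2% of all genes passed the test.

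HSP70 proteins bind short exposed stretches of their clients. HSPA1A and HSPA1B, the neighbouring genes of the stress-inducible HSP70, gave 13.27, 13.35 and 13.38 on the mimic arrays, against 12.82, 12.80 and 12.63 on the control arrays. The groups did not overlap, and the pair rose by 0.58 ± 0.07 on the log2 scale (SE, adjusted p = 0.000102). The other probe sets of the pair, 1 of which is also annotated to HSPA1L, rose by 0.62 and 0.59. Signals of the pair cannot be divided between its genes. HSPA2, a relative best known from testis, gave 8.24, 8.43 and 8.43 on the mimic arrays and 8.02, 7.76 and 7.89 on the control arrays. It rose by 0.48 ± 0.08 (SE, adjusted p = 0.00112). HSPA2 had 1 probe set, whose mean of 8.13 was the lowest of the 39 readings and below the median of all genes (8.41).

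HSPA8, the constitutive member (HSC70), moved the other way. It gave 13.74, 13.72 and 13.75 on the mimic arrays, against 14.21, 14.08 and 14.16 on the control arrays, a difference of -0.41 ± 0.06 (SE, adjusted p = 0.000414). All 4 HSPA8 probe sets fell. The other 3 had larger differences, of -0.70, -0.75 and -0.85, so the fall ranged from 1.33-fold to 1.80-fold by probe set. Of the 4 probe sets, 3 may bind several transcripts (suffix x_at). All are also annotated to SNORD14C and SNORD14D, small nucleolar RNAs encoded within the gene.

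The HSP110 proteins are distant HSP70 relatives that act as its nucleotide exchange factors, and all 3 measured genes changed. Of all genes 30.4% passed, and of genes with a mean of 10 or more, which 2 of the 3 had, 53.2%. HSPH1 (HSP105) gave 12.34, 12.36 and 12.35 on the mimic arrays, against 11.69, 11.71 and 11.55 on the control arrays. The spread among mimic arrays was small beside this gap, and HSPH1 rose 1.62-fold (0.70 ± 0.06 SE, adjusted p = 1.18e-05). Its other probe sets rose by 0.78 and 1.03. HSPA4L (APG1) gave 8.83, 8.99 and 9.08 on the mimic arrays and 10.37, 10.39 and 10.25 on the control arrays. This was the largest fall among the readings, by 1.37 ± 0.08 on the log2 scale (SE, adjusted p = 2.67e-07), with the gene 2.58-fold higher in the control. A second HSPA4L probe set fell by 1.79. HSPA4 (APG2) gave 10.85, 10.94 and 10.93 on the mimic arrays and 11.20, 11.18 and 11.13 on the control arrays, a difference of -0.26 ± 0.06 (SE, adjusted p = 0.00849). All 4 HSPA4 probe sets fell, the others by 0.20, 0.23 and 0.54.

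HSP90 matures kinases and steroid receptors. HSP90AB1, the constitutive isoform, gave 13.63, 13.73 and 13.69 on the mimic arrays, against 13.35, 13.38 and 13.39 on the control arrays. It rose 1.24-fold (0.31 ± 0.06 SE, adjusted p = 0.00272), and its other probe sets rose by 0.28 each. HSP90AA1, the inducible isoform, gave 13.58, 13.61 and 13.55 on the mimic arrays and 13.70, 13.73 and 13.75 on the control arrays. Its groups did not overlap either, but the difference of -0.15 ± 0.06 (SE) did not pass (adjusted p = 0.0991). Of the other 3 HSP90AA1 probe sets, 2 fell, by 0.26 and 0.30, and 1 at -0.12 did not pass. Averaged over its probe sets, the gene fell by 0.21 (adjusted p = 0.00739), and it also passed with eBayes trend and robust (adjusted p = 0.00472).

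Of the 4 measured co-chaperones in this group, all with a mean of 10 or more, 1 fell. Among all genes with such a mean 31.3% fell, and among all genes 16.3%. STIP1 (HOP), which bridges HSP70 and HSP90, gave 10.21, 10.34 and 10.38 on the mimic arrays and 10.60, 10.69 and 10.46 on the control arrays. The difference was -0.27 ± 0.08 (SE, adjusted p = 0.0225), also lower at its second probe set (-0.30), and the call was lost in 4 of the 6 fits without 1 array. PTGES3 (p23), which stabilises closed HSP90, had a difference of 0.01 ± 0.06. CDC37, which brings kinases to HSP90, had -0.10 ± 0.06, and ST13 (HIP), an HSP70 cofactor, -0.03 ± 0.06 (SE each). These 3 did not pass, and their groups overlapped.

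**Figure D3:**
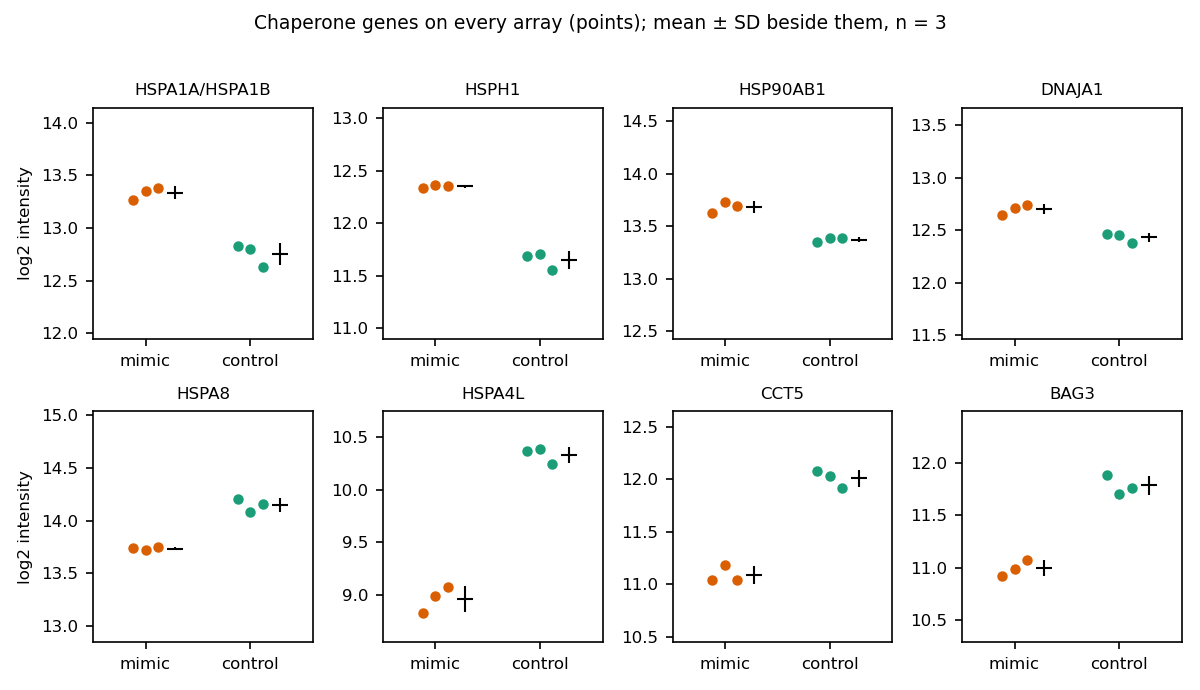
Log2 intensity on each of the 6 arrays (points) with mean ± SD beside them (n = 3 per group) for 8 chaperone readings, each panel spanning the same range on its axis. The upper panels (HSPA1A/HSPA1B, HSPH1, HSP90AB1, DNAJA1) have the mimic arrays above the control arrays, and the lower panels (HSPA8, HSPA4L, CCT5, BAG3) below them.

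J proteins select clients for HSP70. Of 7 measured genes, 1 rose and 2 fell. That was 42.9%, against 30.4% of all genes and 53.2% of genes with a mean of 10 or more, which 6 of the 7 had. DNAJA1 (HDJ2) gave 12.65, 12.71 and 12.74 on the mimic arrays, against 12.46, 12.46 and 12.38 on the control arrays. It rose by 0.27 ± 0.06 (SE, adjusted p = 0.00787), and by 0.31 at its other probe set. DNAJB1 (HSP40), the classic heat-inducible J protein gene, lay higher in all 3 mimic arrays but did not pass (0.14 ± 0.07 SE, adjusted p = 0.150). DNAJC2, a J protein that works at the ribosome, gave 9.95, 10.11 and 10.14 on the mimic arrays and 10.33, 10.32 and 10.29 on the control arrays. Its difference of -0.25 ± 0.07 (SE) passed (adjusted p = 0.0217), though not without control replicate 1 or control replicate 2, nor averaged with its weak second probe set (-0.07). DNAJA2, DNAJB4 and DNAJC7 did not pass, with differences of 0.06, -0.12 and -0.06.

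DNAJB6, which keeps aggregation-prone proteins soluble, depended on the probe set. The probe set annotated to DNAJB6 alone gave 9.30, 9.54 and 9.51 on the mimic arrays and 10.85, 10.70 and 10.76 on the control arrays. The groups lay far apart, and the gene was 2.49-fold higher in the control (-1.32 ± 0.08 SE, adjusted p = 3.78e-07). The other 2 probe sets, annotated to both DNAJB6 and TMEM135, had stronger signals and differences of 0.02 and -0.09, neither of which passed. With the strongest probe set of either kind, DNAJB6 was therefore not called.

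BAG proteins release nucleotide from HSP70. BAG3, which links HSP70 to small heat shock proteins and to autophagy, gave 10.93, 10.99 and 11.07 on the mimic arrays, against 11.89, 11.71 and 11.76 on the control arrays. It fell, and was 1.73-fold higher in the control (-0.79 ± 0.07 SE, adjusted p = 9.48e-06). Neither the probe set used for BAG1 nor another passed (both -0.16), while its last one fell by 0.88 ± 0.06 (SE, adjusted p = 2.04e-06). BAG2, which inhibits the ubiquitin ligase that works with HSP70, had a difference of -0.14 ± 0.08 (SE, adjusted p = 0.254).

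Small heat shock proteins hold unfolded proteins without using ATP. HSPB1 (HSP27) gave 13.80, 13.81 and 13.79 on the mimic arrays, against 13.62, 13.62 and 13.64 on the control arrays. The arrays of a group lay very close together, and the difference of 0.17 ± 0.06 (SE) lay at the threshold without passing it (adjusted p = 0.05 after rounding). HSPB1 passed under 6 of the alternatives tried. HSPB8, the partner of BAG3, had a difference of 0.05 ± 0.06 (SE). HSF1 messenger RNA gave 10.70, 10.85 and 10.79 on the mimic arrays and 10.66, 10.70 and 10.71 on the control arrays, which overlap, and did not pass (0.09 ± 0.06 SE, adjusted p = 0.350). HSF1 is controlled largely at the protein level, which the arrays do not measure.

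The CCT chaperonin folds actin and tubulin, and 6 of its 8 subunit genes fell while none rose. All 8 had a mean of 10 or more, and of all genes with such a mean 31.3% fell and 53.2% passed in either direction. The mimic arrays lay wholly below the control arrays for 7 of the 8. The same held for 1919 of the 4624 genes with a mean of 10 or more, and 70.7% of those genes did not overlap in either direction. CCT5 gave 11.04, 11.19 and 11.05 on the mimic arrays, against 12.08, 12.03 and 11.92 on the control arrays. This was the largest fall among the 8 subunits, with the gene 1.89-fold higher in the control (-0.92 ± 0.07 SE, adjusted p = 2.96e-06), and its second probe set fell by 0.85. CCT6A gave 11.59, 11.76 and 11.71 on the mimic arrays and 12.17, 12.17 and 12.04 on the control arrays (-0.44 ± 0.07 SE, adjusted p = 0.000648). CCT2 gave 12.22, 12.39 and 12.34 on the mimic arrays and 12.65, 12.71 and 12.62 on the control arrays (-0.35 ± 0.07 SE, adjusted p = 0.0026). Both genes also fell at their second probe set, by 0.48 for CCT6A and 0.33 for CCT2.

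The remaining subunits changed less. CCT3, CCT7 and CCT8 passed with differences of -0.25, -0.23 and -0.20. Each of these calls was lost when some arrays were left out: CCT3 without control replicate 2, CCT7 in 4 of 6 such fits and CCT8 in 5 of 6. TCP1, the first subunit, gave 12.33, 12.41 and 12.41 on the mimic arrays, against 12.52, 12.55 and 12.46 on the control arrays. The groups did not overlap, but TCP1 did not pass (-0.12 ± 0.06 SE, adjusted p = 0.179), and its probe sets are also annotated to SNORA29, a small nucleolar RNA. CCT4 had a difference of 0.08 ± 0.06 (SE, adjusted p = 0.432), and its second probe set 0.11. Over the 8 subunit genes the differences thus ran from -0.92 to 0.08.

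Prefoldin, the partner that delivers clients to CCT, was divided. VBP1 (prefoldin subunit 3) gave 11.09, 11.27 and 11.26 on the mimic arrays, against 10.81, 10.79 and 10.65 on the control arrays, and rose 1.37-fold (0.46 ± 0.07 SE, adjusted p = 0.000778). PFDN2 gave 11.37, 11.45 and 11.46 on the mimic arrays and 11.63, 11.62 and 11.61 on the control arrays, a small difference that passed (-0.19 ± 0.06 SE, adjusted p = 0.037). That call was lost in 5 of the 6 fits without 1 array. PFDN6 gave 9.36, 9.37 and 9.42 on the mimic arrays and 9.67, 9.57 and 9.55 on the control arrays (-0.22 ± 0.06 SE, adjusted p = 0.0266). It is the 1 member with probe sets called in both directions: a second fell by 0.30, another rose by 0.20, and with all averaged the difference was -0.06 (adjusted p = 0.393). PFDN1, PFDN4 and PFDN5 did not pass, with differences of 0.11, 0.13 and 0.09.

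**Figure D4:**
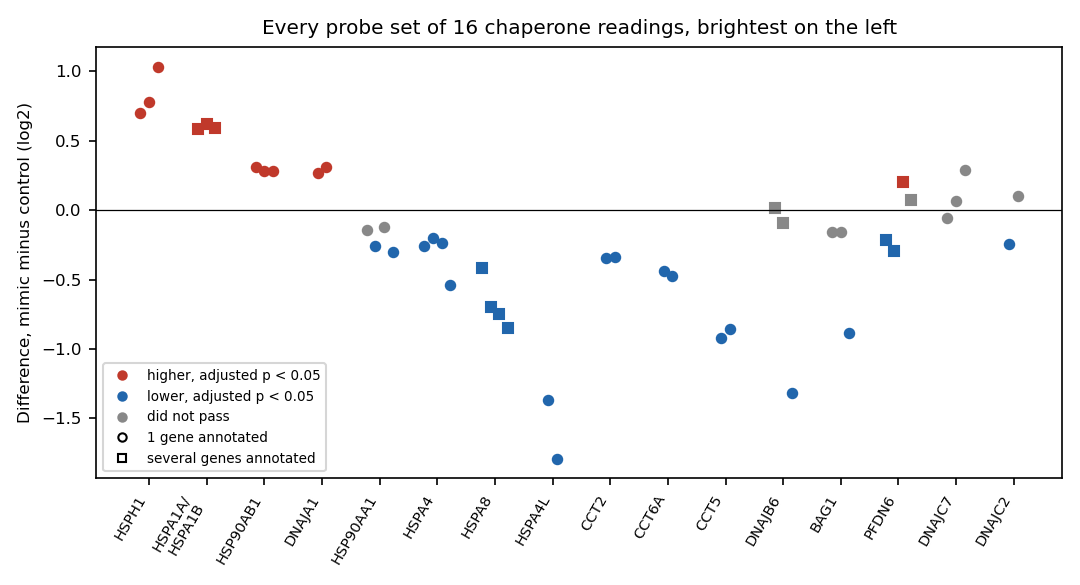
Difference between mimic and control arrays (log2, mimic minus control) at every probe set of 16 chaperone readings, ordered within a gene from the strongest signal on the left; squares are probe sets annotated to several genes. Probe sets of HSPH1, HSPA8, HSPA4L and CCT5 share a direction. Those of BAG1 all lie below 0 but differ in size (-0.88 to -0.16). Those of DNAJB6, PFDN6, DNAJC2 and DNAJC7 lie on both sides of 0.

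Of the 39 readings, 29 had more than 1 probe set. For 11 of these all probe sets passed in the same direction, and for PFDN6 they passed in opposite directions. The like share among all genes with more than 1 probe set was not computed. HSP90AA1 and BAG1 were called only at probe sets other than the one used, where they fell. Leaving out each array and the 9 other scalings, models and readings, 13 of the 21 calls were kept throughout. They were all 6 rises and the falls of CCT2, CCT5, CCT6A, HSPA4, HSPA4L, HSPA8 and BAG3.

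Promoters were then compared for the heat shock element, the site to which trimeric HSF1 binds. Its unit is GAA, and neighbouring units alternate in orientation, so pairs of units were searched as GAANNTTC and TTCNNGAA, each of which reads the same on both strands. A run of 3 units is both pairs overlapping by 1 unit. RefSeq windows of 300 bases (250 before to 50 after the start, GRCh38.p14) were at hand for 38 of the 42 genes, some with several windows. A run of 3 units was found in 5 of the 38 genes (13.2%), against 0.49% of all 35116 windows and 0.608% of all genes. A pair was found in 18 of 38 (47.4%), against 13.5% of all windows and 16.2% of all genes. The genes with a run of 3 were HSPA8 and DNAJB6, which fell at the probe set used, HSP90AB1 and DNAJA1, which rose, and HSP90AA1, whose reading did not pass. By call, counting HSPA1A and HSPA1B as 2 genes, a pair was found in 4 of 7 that rose, 6 of 13 that fell and 8 of 16 that did not pass, and in neither AHSA1 nor HSF2.

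The windows with a run of 3 units in genes that passed are shown with that of HSPA1A, because genes that moved in opposite directions hold the same pattern of units near their start, in letters that differ. Capitals mark matches to either pair, and a run of 3 units is 1 longer block of capitals.
HSPA1A (chr6:31815293-31815592, plus strand): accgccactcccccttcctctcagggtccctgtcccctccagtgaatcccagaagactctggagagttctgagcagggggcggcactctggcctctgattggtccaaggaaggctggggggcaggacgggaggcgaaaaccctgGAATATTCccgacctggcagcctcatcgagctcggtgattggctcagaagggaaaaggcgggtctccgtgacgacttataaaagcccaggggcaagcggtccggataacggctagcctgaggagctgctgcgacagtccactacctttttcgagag
HSP90AB1 (chr6:44247693-44247992, plus strand): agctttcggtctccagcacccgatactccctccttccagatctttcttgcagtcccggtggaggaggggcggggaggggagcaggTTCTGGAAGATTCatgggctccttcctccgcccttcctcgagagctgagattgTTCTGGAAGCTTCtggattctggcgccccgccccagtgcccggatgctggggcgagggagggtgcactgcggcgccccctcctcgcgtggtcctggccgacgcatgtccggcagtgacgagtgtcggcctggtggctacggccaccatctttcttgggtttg
DNAJA1 (chr9:33025023-33025322, plus strand): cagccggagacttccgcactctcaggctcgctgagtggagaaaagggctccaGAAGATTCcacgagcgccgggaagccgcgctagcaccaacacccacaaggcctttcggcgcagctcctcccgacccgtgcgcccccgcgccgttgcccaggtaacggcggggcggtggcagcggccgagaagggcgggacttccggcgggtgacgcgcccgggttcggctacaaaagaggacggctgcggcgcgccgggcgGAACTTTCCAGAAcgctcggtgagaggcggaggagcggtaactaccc
HSPA8 (chr11:123062087-123062386, minus strand): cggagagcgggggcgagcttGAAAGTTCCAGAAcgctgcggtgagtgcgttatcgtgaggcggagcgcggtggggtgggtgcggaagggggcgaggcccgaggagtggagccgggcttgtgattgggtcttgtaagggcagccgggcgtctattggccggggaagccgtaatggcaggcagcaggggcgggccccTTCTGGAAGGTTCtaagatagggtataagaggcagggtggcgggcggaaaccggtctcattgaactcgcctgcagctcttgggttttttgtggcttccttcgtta
DNAJB6 (chr7:157336754-157337053, plus strand): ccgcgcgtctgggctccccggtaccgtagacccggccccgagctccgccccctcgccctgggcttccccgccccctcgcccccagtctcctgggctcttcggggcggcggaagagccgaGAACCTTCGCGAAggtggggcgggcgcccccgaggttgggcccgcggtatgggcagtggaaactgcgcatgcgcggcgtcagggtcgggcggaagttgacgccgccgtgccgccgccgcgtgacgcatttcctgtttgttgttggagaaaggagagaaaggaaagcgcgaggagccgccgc
The runs begin 165 and 112 bases before the HSP90AB1 start of the window shown, and 230 and 55 bases before the HSPA8 start. In DNAJB6 the run begins 131 bases before the start, and in DNAJA1 3 bases after it. The HSP90AB1 window is 1 of 3 for that gene. The others hold neither a run nor a pair, and their starts lie upstream of the window shown. HSPA1A has only a pair in its window, 106 bases before the start, and HSPH1 and BAG3 have neither. A match is a description of letters and does not show that HSF1 binds there, and a window without one says nothing about sites elsewhere.

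Other genes of the cytosolic chaperone network were read in the same way. Of 39 measured genes outside the list above, 6 rose, 5 fell and 28 did not pass, with a median difference of 0.03. The share that passed was 28.2%, against 30.4% of all genes. Of genes with a mean of 10 or more, 53.2% passed, and 23 of the 39 had such a mean. CRYAB, a small heat shock protein gene, averaged 10.18 on the mimic arrays and 9.29 on the control arrays and rose 1.85-fold (0.89 ± 0.06 SE, adjusted p = 1.23e-06). The J protein genes DNAJB2 (0.83) and DNAJC5 (0.55) rose as well. DNAJC9, a J protein that handles histones, fell by 0.47, PDCD5, a partner of CCT, by 0.41 and BAG4 by 0.37.

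Among 18 measured genes for CCT clients and tubulin cofactors, 3 rose, 5 fell and 10 did not pass. The share that passed was 44.4%, against 30.4% of all genes and 53.2% of genes with a mean of 10 or more, which 16 of the 18 had. TUBB2A, a beta-tubulin gene, averaged 10.24 on the mimic arrays and 11.15 on the control arrays (-0.91 ± 0.08 SE, adjusted p = 6.75e-06), and TUBB4B and TUBB6 fell by 0.65 and 0.60. The alpha-tubulin gene TUBA1A rose by 0.79, and the cofactor genes TBCB and TBCC by 0.32 and 0.28. TBCC no longer passed when mimic replicate 2 (adjusted p = 0.0668) or control replicate 2 (adjusted p = 0.0725) was left out. ACTB, which encodes beta-actin, had a difference of 0.01 ± 0.06 (SE) and did not pass. Tubulin genes have similar sequences, so a probe may bind several of them and their separate values are uncertain.

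Of 12 measured genes known to be induced by HSF1 and not among the members, 3 rose, 2 fell and 7 did not pass, with a median of 0.07. The share that passed was 41.7%, against 30.4% of all genes and 53.2% of genes with a mean of 10 or more, which 9 of the 12 had. The set overlaps the other chaperone network genes above: HSPA6, CHORDC1, FKBP4, CACYBP, CRYAB and DNAJB5 were counted in both. CRYAB, DNAJB5 (0.33) and DEDD2 (0.19) rose, the calls of DNAJB5, whose groups overlapped, and of DEDD2 being lost under several alternatives. HSPE1, the mitochondrial co-chaperonin, fell by 0.44 and SERPINH1, a collagen chaperone, by 0.28, though SERPINH1 did not pass without control replicate 2 (adjusted p = 0.0527). HSPA6, an HSP70 gene that is nearly silent without stress, averaged 7.87 on the mimic arrays and 7.90 on the control arrays (adjusted p = 0.754).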

How the data were processed

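The deposited values are log2 intensities of single-colour Affymetrix arrays hybridised with biotin-labelled total RNA, which the authors normalized by RMA, a robust average over the probes of a set (per the submitters' processing notes, which name no version). A global change in RNA amount is hidden by this step. Of 54675 probe sets, 62 controls were left out. Symbols came from the platform annotation.

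Mimic and control arrays were compared with limma 3.58.1 (lmFit and eBayes, R 4.3.3) over all 54613 probe sets, two-sided, with Benjamini-Hochberg adjustment and a threshold of 0.05; the fit was tested on simulated data. Named genes were the fixed members HSP90AA1, HSP90AB1, HSPA8, HSPA1A, HSPA1B, HSF1, HSF2 (not measured) and TCP1, the up to 3 most changed members that passed in each role group, and up to 3 such genes per other list and direction. Other genes named, among them HSPB1 and BAG1, were singled out after their values were seen. Members and lists were chosen with earlier results of these data known, and the mean of 10 after values were seen. Tables were made with Python 3.11.15 and pandas 2.3.3. Alternatives are given in the closing section.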

Additional observations from a re-analysis of the deposited data

How the results depend on the processing

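Chaperone genes higher numbered 6 in the main comparison, 10 after quantile normalization again and 10 with array weights. Of all genes, 6013, 6445 and 7620 passed in these, counting both directions. Chaperone genes lower numbered 15, 8 at an adjusted p under 0.01, and 8 to 14 without 1 array. Of all genes, 4293 passed at an adjusted p under 0.01, and 4753 to 5868 without 1 array. With a 1.5-fold minimum, by construction fewer, 1 chaperone gene was higher and 4 lower, and 3590 probe sets and 1723 genes passed. The chaperone median of -0.12 was -0.05 after quantile normalization again and -0.13 to -0.05 without 1 array. DNAJB6 was at 0.02 where probe sets annotated to several genes could represent it. With the replicate block, 6 chaperone genes were higher and 13 lower, and CCT8 and PFDN2 no longer passed. Of all genes, 5812 passed with that block. The sample titles share a number and do not state a pairing. Deviations of same-numbered arrays correlated at -0.107, 0.084 and 0.082, and those of differently numbered arrays at -0.186 to 0.12. So few values cannot decide whether the arrays were paired. Of 613 values of 37 named genes under alternatives, DNAJB6 alone turned direction. Apart from the several-gene reading and the thresholds, whose construction shows the cause, the causes were not tested. The number of arrays limits the precision.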
